A study of Mus musculus with 4 samples.

Results

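The expression of 8 genes for amino acid transporters was examined in CD69+DP thymocytes, the CD4+CD8+ cells that have received a TCR signal and carry CD69. The genes were chosen by name from the 24421 listed genes, and all 8 were found: *Slc1a5*, *Slc3a2*, *Slc7a1*, *Slc7a5*, *Slc7a6*, *Slc38a1*, *Slc38a2* and *Slc38a9*. Cells were sorted from the thymus of 6-week-old mice on a C57BL/6 background. Foxa1/2cKO mice had loxP-flanked alleles of both *Foxa1* and *Foxa2* with Cre under the *Cd4* promoter (2 samples), and control mice had the same floxed alleles without Cre (2 samples), so that both groups share the floxed alleles and only 1 group carries Cre. By the study's methods, the samples came from different mice and were sorted independently, with 2 mice per genotype in a sort. Whether samples shared a sort is not clear from this wording.

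T cells import most of the amino acids they use, and uptake rises when a T cell is activated and grows. Plasma membrane carriers bring in glutamine, large neutral amino acids and arginine, and part of the large neutral amino acid uptake is an exchange in which intracellular amino acids leave as others enter. Inside the cell, amino acids in the lysosome are sensed by a complex that recruits the growth kinase mTORC1 to the lysosomal surface. Some transporter genes are also transcriptional targets of Atf4, a factor made when amino acids are scarce.

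The deposited value of a gene is its FPKM, fragments scaled by the length of the gene and by a sample total, so that levels can be compared between genes of different length. The sample totals, worked out here from the steps between the deposited values, were 14968316 and 13576813 in control against 10796528 and 11093927 in Foxa1/2cKO. They are scaling values and not counts of reads. The recovered reads came to 14482691 and 13071202 in control against 10396834 and 11262366 in Foxa1/2cKO. *Foxa1* and *Foxa2* were listed at 0 in all 4 samples and do not check the genotypes. All 7 DP thymocyte markers were present, with a summed FPKM of 2330 to 2373 in the controls and of 2417 and 3011 in Foxa1/2cKO. Foxa1/2cKO 2 stood apart from the other 3 samples. It was below all of them in 33.3% and above all of them in 40.5% of the 10776 genes tested. In Foxa1/2cKO 2 the summed FPKM of 8 cycling markers was 156, against 430 to 489 in the other samples, and that of 5 mature SP markers was 174, against 228 to 261. The 8 dissociation stress markers had no common direction in Foxa1/2cKO 2, which was below the other 3 samples for 3 and above them for 2 of the 6 that passed the filter, and their sum of 310 (213 to 278 in the other samples) was made up mostly of *Egr1* at 196 and *Dnajb1* at 54.6. The B cell markers summed to 48.7 to 99.4, the myeloid markers to 16.9 to 34.2, the thymic epithelial markers to 3.18 to 4.18 and the erythroid markers to 0.608 to 2.67 in the 4 samples, with *Hba-a1*, *Hbb-bs* and *Hbb-bt* listed at 0 in all of them. In bulk RNA, fewer cells of a type and less RNA per cell cannot be told apart.

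All 8 transporters were expressed and reached an FPKM of 1 in 2 samples or more, the filter for testing, and 0 of the 8 differed between Foxa1/2cKO and control at an adjusted p under 0.05. Over all genes, 0.00928% passed this threshold with limma on log2(FPKM + 1), a count of 1 gene. An unadjusted p under 0.05 was found for 0 of the 8, where 4.55% of all genes had one. For 1 member, *Slc38a2*, each Foxa1/2cKO sample exceeded each control, and for 1 member, *Slc38a9*, each was lower, while 18.9% of all genes lay above and 17.8% below. The fitted differences of the 8 genes ran from -0.33 to 0.40 on the log2 scale with a median of -0.04, and the median over all genes was 0.01. With 2 samples against 2, an exact permutation test cannot give a two-sided p under 0.333.

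**Figure D1:**
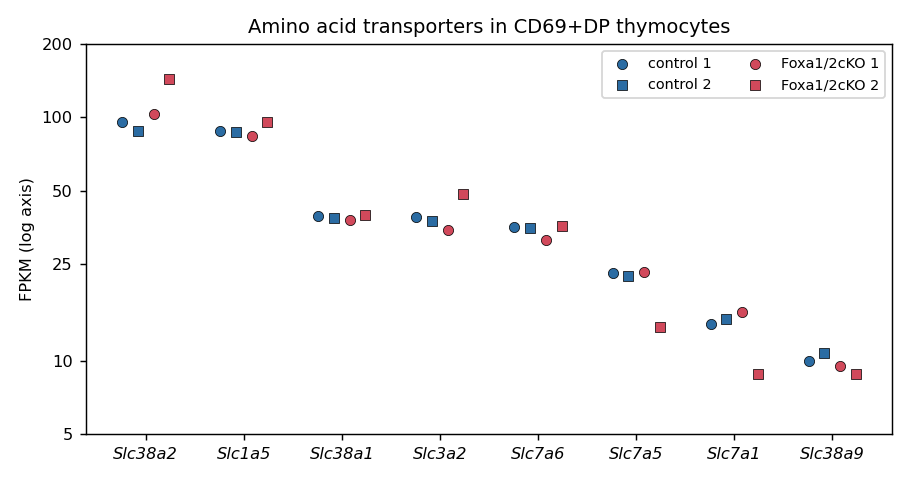
FPKM of the 8 transporters on a log axis, with 1 point per sample (blue, control; red, Foxa1/2cKO; circles, sample 1; squares, sample 2) and genes ordered by their mean in the controls. The controls lie close together for every gene, and Foxa1/2cKO 2 lies below the other samples for *Slc7a5* and *Slc7a1* and above them for *Slc38a2* and *Slc3a2*.

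By level in the controls, *Slc38a2* (mean FPKM 91.7) and *Slc1a5* (87.6) came first, then *Slc38a1* (39.0), *Slc3a2* (38.2), *Slc7a6* (35.3), *Slc7a5* (22.6), *Slc7a1* (14.5) and *Slc38a9* (10.4). Among the 10776 genes tested, ranked by mean FPKM over all samples, *Slc38a2* was at rank 571 and *Slc38a9* at rank 6707. *Slc38a1* and *Slc3a2* overlapped in the controls and also in Foxa1/2cKO. In Foxa1/2cKO the values of *Slc3a2* and *Slc7a6* overlapped as well, as did those of *Slc7a1* and *Slc38a9*. The values of *Slc7a5* and *Slc7a1* overlapped in Foxa1/2cKO too, with *Slc7a5* at 13.7 in sample 2 and *Slc7a1* at 15.8 in sample 1. *Slc38a2* and *Slc1a5* came close to overlapping in the controls, with 88.2 in the lower control of *Slc38a2* and 88.0 in the higher control of *Slc1a5*. Together the 8 genes summed to an FPKM of 344 and 335 in the controls and of 339 and 393 in Foxa1/2cKO, of which *Slc1a5* and *Slc38a2* made up the most in every sample.

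*Slc3a2* encodes the heavy chain that carries several light chains to the cell surface and is known as CD98. It lies on the minus strand of chromosome 19 of mm10 (8706882 to 8723369), and the small nucleolar RNA host gene *Snhg1* lies 118 bases away on the side of its start. The FPKM of *Slc3a2* was 38.9 and 37.4 in control against 34.4 and 48.2 in Foxa1/2cKO, with 1722, 1503, 1099 and 1583 reads behind them. The 2 Foxa1/2cKO samples lay on either side of the controls, the first below and the second above them. The fitted difference was 0.09 (standard error 0.18, 95% interval -0.37 to 0.55), with an adjusted p of 0.926 from limma. Other genes hold 4.52% of all 50-base runs in its longest transcript, so that some reads may not be unique to it.

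*Slc7a5* encodes the light chain that exchanges large neutral amino acids such as leucine for intracellular glutamine, and it works as a dimer with the *Slc3a2* product. The gene is on the minus strand of chromosome 8 (121881146 to 121907686). FPKM values of *Slc7a5* were 22.9 and 22.3 for control against 23.1 for Foxa1/2cKO 1 and 13.7 for Foxa1/2cKO 2, with 1206, 1065, 878 and 533 reads behind them. Foxa1/2cKO 1 was thus level with the controls, and only Foxa1/2cKO 2 was lower, at 0.604 times the control mean. The counting interval of the low value, 12.5 to 14.9, was clear of those of the other 3 samples, which began at 21 or higher. The control mean was 22.6 ± 0.428 (SD, n = 2), and that of Foxa1/2cKO was 18.4 ± 6.70 (SD, n = 2). On the log2 scale this was a difference of -0.33 (standard error 0.25, 95% interval -0.98 to 0.33), and limma gave an adjusted p of 0.863.

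*Slc7a6*, on the plus strand of the same chromosome (106168219 to 106198714), encodes another light chain of the *Slc3a2* product, which exchanges basic amino acids such as arginine for neutral ones. The FPKM of *Slc7a6* was 35.5 and 35.1 in control against 31.4 and 35.8 in Foxa1/2cKO. The groups overlapped, with Foxa1/2cKO 2 slightly above the controls and Foxa1/2cKO 1 below them. The difference was -0.07 (standard error 0.10, 95% interval -0.33 to 0.19, adjusted p = 0.897 with limma). This interval was narrower than that of *Slc7a5*.

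Ratios between genes within 1 sample do not depend on the scaling between samples. The FPKM of *Slc7a5* was 0.646 and 0.636 times that of *Slc7a6* for the controls, 0.736 times for Foxa1/2cKO 1 and 0.382 times for Foxa1/2cKO 2. *Slc7a5* relative to the heavy chain gene *Slc3a2* was 0.590 and 0.597 for the controls, 0.673 for Foxa1/2cKO 1 and 0.284 for Foxa1/2cKO 2. The matching ratio of *Slc7a6* to *Slc3a2* was 0.913, 0.938, 0.914 and 0.743 in the same order. Both light chain ratios were lowest in Foxa1/2cKO 2, while Foxa1/2cKO 1 was at or above the controls for *Slc7a5* and between them for *Slc7a6*. The sum of both light chain genes came to 1.5 and 1.53 times *Slc3a2* for the controls, 1.59 times for Foxa1/2cKO 1 and 1.03 times for Foxa1/2cKO 2. In each of these ratios the 2 Foxa1/2cKO samples differed more from each other than the 2 controls did.

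**Figure D2:**
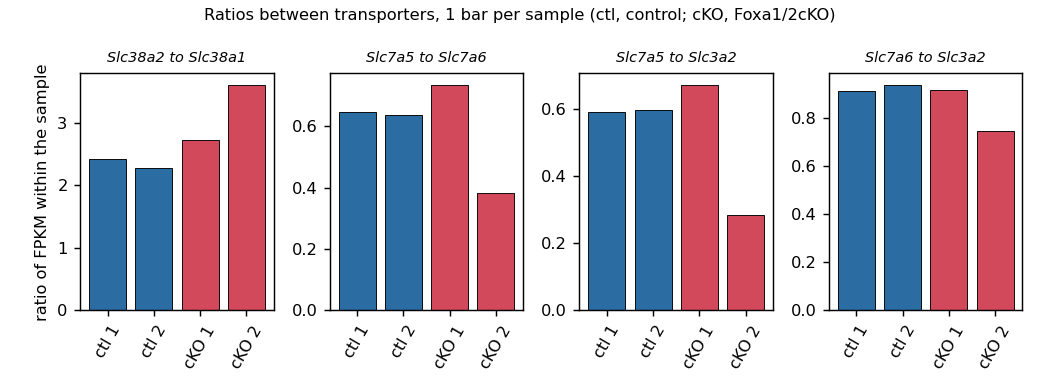
Ratio of the FPKM of gene pairs within each sample, with 1 bar per sample from 0 (ctl, control; cKO, Foxa1/2cKO). The ratio of *Slc38a2* to *Slc38a1* is highest in Foxa1/2cKO 2 at 3.61, and the other ratios are lowest there, at 0.382, 0.284 and 0.743.

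*Slc7a1* encodes the cationic amino acid transporter that takes up arginine, lysine and ornithine without a partner chain. It lies on the minus strand of chromosome 5 (148327410 to 148399904). The FPKM of *Slc7a1* was 14.2 and 14.8 for control against 15.8 for Foxa1/2cKO 1 and 8.84 for Foxa1/2cKO 2, with 1538, 1459, 1237 and 710 reads behind them. As with *Slc7a5*, Foxa1/2cKO 1 was at or above the controls and Foxa1/2cKO 2 was lower, here at 0.609 times the control mean, with a counting interval of 8.20 to 9.52. The difference between the groups was -0.27 on the log2 scale (standard error 0.27, 95% interval -0.97 to 0.43, limma's adjusted p = 0.870).

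The exchange of small neutral amino acids, glutamine among them, across the plasma membrane is carried out by the product of *Slc1a5* (chromosome 7, plus strand, 16781334 to 16798274). *Slc1a5* was at 88.0 and 87.3 FPKM in control against 83.4 and 95.7 in Foxa1/2cKO, and each sample had 2484 to 3632 reads. The controls lay between the Foxa1/2cKO samples. Its difference of 0.03 had a standard error of 0.10, a 95% interval of -0.24 to 0.29 and an adjusted p of 0.967 with limma.

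*Slc38a1* and *Slc38a2* encode sodium-coupled importers of glutamine, alanine and other small neutral amino acids, and lie near each other on the minus strand of chromosome 15, at 96571418 to 96643438 and at 96687392 to 96699728. *Slc38a1* had the smallest log2 difference between the Foxa1/2cKO samples of the 8 genes (0.06), with 39.4 and 38.7 FPKM in control against 37.9 and 39.5 in Foxa1/2cKO, and 3437 to 4943 reads. The groups overlapped, and the difference was -0.01 (standard error 0.08, 95% interval -0.23 to 0.20, limma's adjusted p = 0.985). An annotated gene model, *Gm32457*, overlaps *Slc38a1*, and whether the counting used strand was not given in the sources used here.

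*Slc38a2*, whose transcription is known to rise when cells are short of amino acids, had the largest difference of the 8 genes. FPKM values of *Slc38a2* were 95.3 and 88.2 for control against 103 for Foxa1/2cKO 1 and 143 for Foxa1/2cKO 2, with 6599, 5544, 5149 and 7329 reads behind them. The groups did not overlap, with Foxa1/2cKO 1 at 1.12 times and Foxa1/2cKO 2 at 1.56 times the control mean. The control mean was 91.7 ± 4.97 (SD, n = 2), that of Foxa1/2cKO 123 ± 28.1 (SD, n = 2). The difference of 0.40 on the log2 scale (standard error 0.17, 95% interval -0.06 to 0.86) had an unadjusted p of 0.0742 and an adjusted p of 0.863 in limma, so it did not pass the test. Relative to its neighbour *Slc38a1*, the FPKM of *Slc38a2* was 2.42 and 2.28 times as high for the controls, 2.72 times for Foxa1/2cKO 1 and 3.61 times for Foxa1/2cKO 2. Of the summed FPKM of the 8 genes, *Slc38a2* made up 27.7% and 26.4% in control against 30.4% and 36.3% in Foxa1/2cKO.

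*Slc38a9* is the member that acts inside the cell, where it exports amino acids from the lysosome under the control of arginine and signals to mTORC1. It lies on the plus strand of chromosome 13 (112656189 to 112738752), and the gene models *Gm18883* and *Gm52034* overlap it. The FPKM of *Slc38a9* was 9.98 and 10.8 in control against 9.55 and 8.81 in Foxa1/2cKO, with 1332, 1306, 919 and 871 reads behind them. Both Foxa1/2cKO samples were below both controls, but the counting intervals of Foxa1/2cKO 1 (8.94 to 10.2) and control 1 (9.46 to 10.5) overlapped. Its difference was -0.16 (standard error 0.10, 95% interval -0.44 to 0.11, limma's adjusted p = 0.863).

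**Figure D3:**
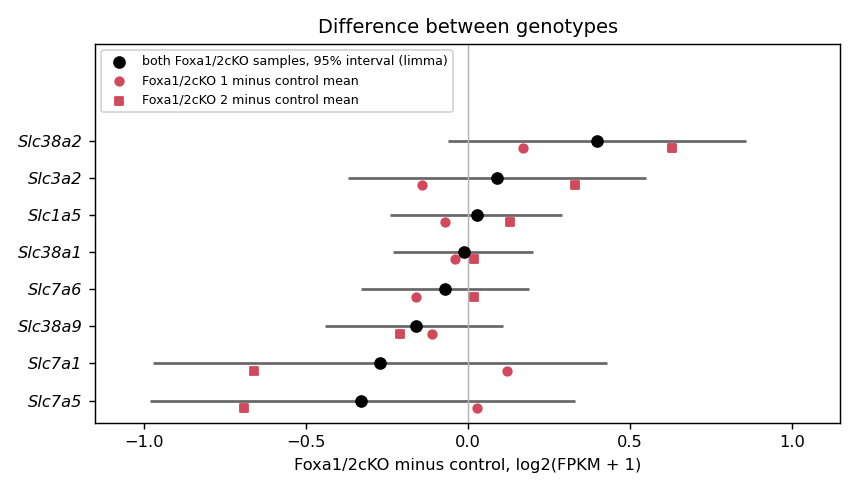
Difference between Foxa1/2cKO and control on the log2(FPKM + 1) scale for each transporter. Black points and lines give limma's difference and 95% interval, and red symbols give each Foxa1/2cKO sample minus the control mean (circle, sample 1; square, sample 2). Every interval includes 0, and for *Slc7a5* the samples lie at 0.03 and -0.69, for *Slc7a1* at 0.12 and -0.66 and for *Slc3a2* at -0.14 and 0.33.

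Foxa1/2cKO 2 was the highest of the 4 samples for 5 transporters (*Slc1a5*, *Slc3a2*, *Slc7a6*, *Slc38a1* and *Slc38a2*) and the lowest for 3 (*Slc7a1*, *Slc7a5* and *Slc38a9*). Among all genes tested, it was likewise above the other 3 samples in 40.5% and below them in 33.3%. The absolute log2 difference between the 2 Foxa1/2cKO samples had a median of 0.33 over the 8 genes and of 0.20 over all genes tested, and between the 2 controls of 0.05 and 0.08. When Foxa1/2cKO 1 was left out, the fit called 4 of the 8 transporters, *Slc38a2* (0.63) and *Slc3a2* (0.33) as higher and *Slc7a1* (-0.66) and *Slc7a5* (-0.69) as lower, at adjusted p between 0.00241 and 0.0173 with limma. In that fit 23.7% of all genes were called, and the lone sample is assumed to vary like the controls. When Foxa1/2cKO 2 was left out instead, 0 of the 8 were called against 0.176% of all genes, and the differences were 0.17 for *Slc38a2*, -0.14 for *Slc3a2*, 0.12 for *Slc7a1* and 0.03 for *Slc7a5*. The direction of the last 3 thus turned with that sample. Cycling and mature SP markers were lower in Foxa1/2cKO 2 as given above, and their part in the values of these transporters was not tested.

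Sequences from 250 bases before to 50 bases after an annotated start, from RefSeq on GRCm38.p6, which is mm10, were at hand for 5 of the 8 genes in 7 windows. They are shown for *Slc7a1* and *Slc38a2*, which moved most in opposite directions in Foxa1/2cKO 2 among these 5. The windows of all 7 starts were searched on both strands for the forkhead motif in the form TGTTTAC and its variants TGTTTGC and also TATTTAC, for the E-box CACGTG, for the C/EBP-ATF element TGATGNAA and for the CCAAT box. Capitals in the sequences mark the matches, and all are written 5′ to 3′ on the strand of the gene.

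*Slc7a1*, chr5:148399855-148400154, minus strand: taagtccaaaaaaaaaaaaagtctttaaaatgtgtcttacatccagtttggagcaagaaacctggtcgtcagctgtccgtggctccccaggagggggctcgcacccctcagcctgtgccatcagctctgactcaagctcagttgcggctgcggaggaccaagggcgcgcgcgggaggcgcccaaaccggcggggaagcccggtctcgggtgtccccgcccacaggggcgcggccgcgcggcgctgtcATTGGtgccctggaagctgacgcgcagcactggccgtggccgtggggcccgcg

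*Slc7a1*, second start, chr5:148392766-148393065, minus strand: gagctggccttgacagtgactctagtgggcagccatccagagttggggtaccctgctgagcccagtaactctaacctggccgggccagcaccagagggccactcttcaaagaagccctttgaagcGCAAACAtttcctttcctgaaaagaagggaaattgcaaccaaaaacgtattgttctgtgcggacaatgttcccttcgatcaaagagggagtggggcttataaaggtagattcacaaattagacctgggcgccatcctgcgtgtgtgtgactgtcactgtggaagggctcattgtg

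*Slc38a2*, chr15:96699679-96699978, minus strand: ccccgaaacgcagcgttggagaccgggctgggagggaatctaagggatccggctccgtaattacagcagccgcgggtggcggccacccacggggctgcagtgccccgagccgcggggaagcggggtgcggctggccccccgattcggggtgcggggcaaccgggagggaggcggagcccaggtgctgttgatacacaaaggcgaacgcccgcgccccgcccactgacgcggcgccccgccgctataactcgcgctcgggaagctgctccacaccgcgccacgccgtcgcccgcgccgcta

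The first window of *Slc7a1* held CCAAT on the reverse strand at bases 248 to 252 of the window, and the second held TGTTTGC on the reverse strand at bases 126 to 132. The other 5 windows, those of *Slc38a2*, *Slc3a2*, *Slc38a9* and both of *Slc7a6*, held none of the 6 motifs. Sequence of these genes outside the windows was not searched, so that the motifs may be present elsewhere in them. The windows of *Slc3a2* (8713848 to 8714147), *Slc38a9* (112660516 to 112660815) and *Slc7a6* lie within the gene spans given above. The outermost starts of these genes were therefore not searched. Of 32851 annotated windows of the same length in the mouse genome, the forkhead forms were held by 3.65% (TGTTTAC), by 5.07% (TGTTTGC) and by 3.04% (TATTTAC), the E-box by 7.15%, the C/EBP-ATF element by 3.97% and the CCAAT box by 37.4%. These matches describe the letters of the windows and are not binding sites, and binding was not measured here.

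The other amino acid transporters were taken as 65 genes, of which 38 act mainly at the plasma membrane, 11 in mitochondria and 16 in lysosomes and vesicles. Of these, 27 passed the filter, and 16 were listed at 0 in all samples. With limma 0 of the 27 had an adjusted p under 0.05, and 1 was higher and 3 were lower at an unadjusted p under 0.05, which 4.55% of all genes had. Their median difference was -0.01. Both Foxa1/2cKO samples were above both controls for 4 and below for 4 of the 27, beside 18.9% and 17.8% of all genes. Summed over the 65 genes, the FPKM was 333 and 331 in control against 320 and 350 in Foxa1/2cKO, about as much as that of the 8 members.

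The smallest unadjusted p among them belonged to *Slc6a19*, a sodium-coupled importer of neutral amino acids best known from gut and kidney. *Slc6a19* was at 6.98 and 8.61 FPKM in control against 11.7 and 13.7 in Foxa1/2cKO, a difference of 0.65 (standard error 0.14, unadjusted p = 0.00761, adjusted p = 0.863 in limma). The reads behind these values were 85 and 95 in control against 103 and 124 in Foxa1/2cKO, fewer than for any member. *Slc7a11*, which exchanges cystine for glutamate and also pairs with the *Slc3a2* product, was at 5.70 and 7.09 in control against 3.99 and 3.10 in Foxa1/2cKO, a difference of -0.70 (standard error 0.17, unadjusted p = 0.0102, adjusted p = 0.863 in limma). In both genes the groups did not overlap, and the difference was larger than the SD of either group, yet the adjusted p did not pass. *Slc25a22*, a mitochondrial glutamate carrier, was at 19.3 and 18.6 in control against 15.4 and 15.6 in Foxa1/2cKO (difference -0.27, standard error 0.09, limma's unadjusted p = 0.0269). *Slc38a6* was at 4.70 and 4.75 in control against 3.60 and 3.41 in Foxa1/2cKO (difference -0.35, standard error 0.12, limma's unadjusted p = 0.0358).

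The most abundant of the other transporters did not separate the groups to this extent. *Slc25a12*, the mitochondrial aspartate and glutamate carrier, was at 30.8 and 30.1 FPKM in control against 32.5 and 38.5 in Foxa1/2cKO. *Slc38a10* was at 32.7 and 31.1 in control against 31.3 and 35.6 in Foxa1/2cKO, and *Slc43a2*, a facilitator of large neutral amino acids, at 26.0 and 24.4 in control against 24 and 31.6 in Foxa1/2cKO. *Sfxn3*, a mitochondrial sideroflexin, was at 26.8 and 26.4 in control against 23.5 and 36.9 in Foxa1/2cKO. In the last 3 genes Foxa1/2cKO 2 was the highest sample and the groups overlapped.

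**Figure D4:**
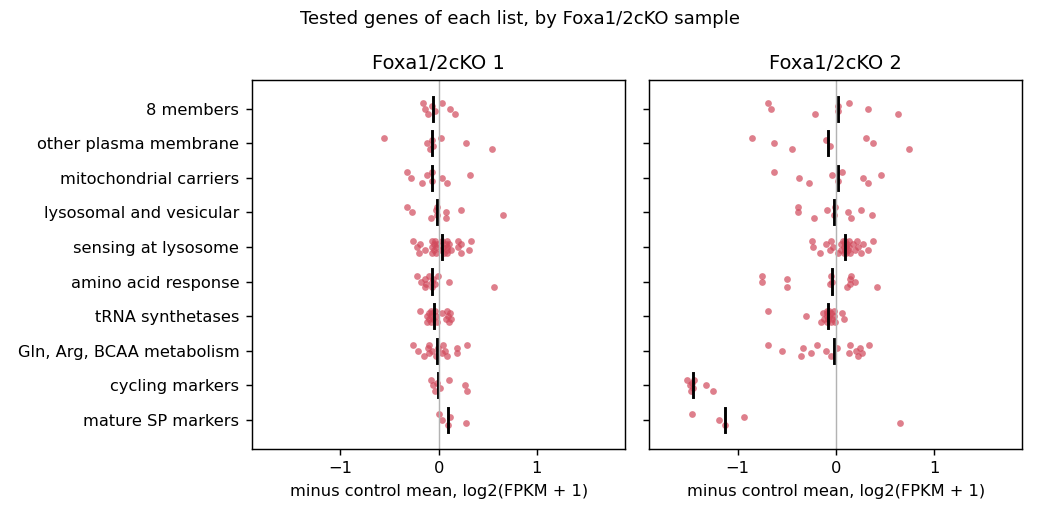
Each Foxa1/2cKO sample minus the control mean on the log2(FPKM + 1) scale, for the tested genes of each list (points, genes; black bars, list medians; Gln, glutamine; Arg, arginine; BCAA, branched-chain amino acids). The transporter and amino acid lists scatter around 0 in both samples, and the cycling and mature SP markers are shifted to lower values in Foxa1/2cKO 2.

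Amino acid sensing at the lysosome was represented by the Ragulator, Rag GTPase, GATOR, KICSTOR, Sestrin and mTORC1 genes and their partners. The file held 32 of 33 by symbol, and 31 passed the filter. With limma 0 had an adjusted p under 0.05, and 1 was higher and 0 lower at an unadjusted p under 0.05, beside 4.55% of all genes. The median difference was 0.07. The groups did not overlap for 10 genes that were higher and 3 that were lower in Foxa1/2cKO, of 31, beside 18.9% and 17.8% of all genes. *Sesn1*, a Sestrin that restrains mTORC1, was at 27.5 and 29.0 FPKM in control against 33.2 and 35.9 in Foxa1/2cKO, a difference of 0.28 (standard error 0.09, limma's adjusted p = 0.863). *Lamtor2*, a Ragulator subunit, was at 51.9 and 56.4 in control against 46.2 and 50.4 in Foxa1/2cKO. *Sec13*, the most abundant of the list, was at 85.3 and 77.8 in control against 82.9 and 87.8 in Foxa1/2cKO.

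Of 21 genes of the amino acid response, the Atf4 programme that includes amino acid synthesis enzymes, 13 passed the filter. With limma 0 of the 13 had an unadjusted p under 0.05, beside 4.55% of all genes, and the median difference was -0.04. Without overlap, 1 of the 13 was higher and 4 were lower in Foxa1/2cKO, beside 18.9% and 17.8% of all genes. *Atf4* itself was at 86.7 and 81.2 FPKM in control against 76.4 and 96.8 in Foxa1/2cKO, so that the controls lay between the Foxa1/2cKO samples as they did for *Slc1a5* and *Slc3a2*. *Shmt2*, which makes glycine from serine in mitochondria, was at 52.1 and 49.7 in control against 46.0 and 35.6 in Foxa1/2cKO (difference -0.32, standard error 0.14). *Phgdh*, the first enzyme of serine synthesis, was at 36.5 and 39.4 in control against 36.2 and 26.5 in Foxa1/2cKO (difference -0.28, standard error 0.17). In both enzymes Foxa1/2cKO 2 was the lowest sample, as for *Slc7a1* and *Slc7a5*.

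The 20 cytosolic aminoacyl-tRNA synthetases, which load amino acids onto tRNAs, all passed the filter, with 0 called at an adjusted p under 0.05 and 1 lower at an unadjusted p under 0.05, beside 4.55% of all genes. Their median difference was -0.05. Foxa1/2cKO lay below control without overlap for 9 of the 20 and above it for 1, where 17.8% of all genes lay below and 18.9% above. *Kars*, the lysine enzyme, was at 71.8 and 73.5 FPKM in control against 63.7 and 58.8 in Foxa1/2cKO, a difference of -0.24 (standard error 0.09, limma's adjusted p = 0.863). *Iars*, for isoleucine, was at 26.8 and 25.7 in control against 24.1 and 23.6 in Foxa1/2cKO.

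Of 23 genes of glutamine, arginine and branched-chain amino acid metabolism, 16 passed the filter, and 0 were called at an adjusted p under 0.05 with limma. At an unadjusted p under 0.05 in limma, 1 was higher and 0 were lower, beside 4.55% of all genes. The groups did not overlap for 3 that were higher and 4 that were lower in Foxa1/2cKO, beside 18.9% and 17.8% of all genes. *Bcat2*, which starts the breakdown of branched-chain amino acids, was at 48.9 in each control and at 40.6 and 59.0 in Foxa1/2cKO. The median difference of this list was -0.03.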

How the data were processed

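RNA of FACS-sorted CD69+DP thymocytes was measured in 2 control and 2 Foxa1/2cKO samples. Reads were aligned by the authors in BaseSpace (mm10, RefSeq genes), and HTSeq's union mode gave their counts. Per the labels, the authors also used TopHat, Picard and DESeq2. The authors deposited 1 FPKM value for each gene in each sample. The step from reads to FPKM was not given in the sources used here. The value steps gave back whole reads for 100% of the 16069 genes above 0 (tolerance 0.002), and 96.7% of 6064 genes then had a whole length (tolerance 0.02). For all 8 transporters the smallest whole reads already gave a whole length. Counting intervals are exact Poisson intervals (95%) and cover counting error only.

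Foxa1/2cKO was compared with control by limma 3.58.1 in R 4.3.3 on log2(FPKM + 1) with a mean-variance trend, for genes that reached an FPKM of 1 in 2 samples or more, with Benjamini-Hochberg adjustment over the 10776 genes tested at 0.05. The pseudocount makes fold changes of low genes too small. The fit had 2 residual and 2.69 prior degrees of freedom, and its p-values rest on the spread between these samples. The pipeline was tested on simulated data in which no sample stood apart from its group. The simulation therefore does not cover a sample like Foxa1/2cKO 2. The 8 genes and the lists were chosen with earlier results of these data known. Named genes are the 8 transporters and, from each amino acid list, those with the smallest unadjusted p and the highest mean FPKM; marker lists are given as sums. Some genes that this rule names are not reported here. Positions are from RefSeq (mm10) and strands from GENCODE M21. Alternatives were a pseudocount of 0.1, no filter, a minimum FPKM of 5, upper-quartile scaling, a replicate block, no trend, limma-voom on recovered reads and leaving out each sample. Tables and figures were made in Python 3.11.15 (pandas 2.3.3, matplotlib 3.10.9). Exon usage was not analysed here.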

Additional observations from a re-analysis of the deposited data

How the results depend on the processing

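None of the 8 transporters passed an adjusted p of 0.05 in any setting that kept all 4 samples, where the adjusted p of *Slc38a2* ran from 0.832 to 0.998. Over all genes, the count at an adjusted p under 0.05 went from 1 to 0 with a pseudocount of 0.1, with no filter, with a minimum FPKM of 5, with upper-quartile scaling and with limma-voom on recovered reads, and the count at an unadjusted p under 0.05 went from 490 to 802 with no filter. With each sample left out in turn, these counts ranged from 0 to 2559 and from 73 to 4223, and those of the 8 transporters from 0 to 4 for either p. The highest counts came without Foxa1/2cKO 1. Without Foxa1/2cKO 2, 19 genes passed the adjusted threshold. Where a group was left with 1 sample, that sample was assumed to vary like the other group.

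Over the same omissions, differences ranged from -0.07 to 0.13 for *Slc1a5*, from -0.14 to 0.33 for *Slc3a2*, from -0.66 to 0.12 for *Slc7a1*, from -0.69 to 0.03 for *Slc7a5*, from -0.16 to 0.02 for *Slc7a6* and from -0.04 to 0.02 for *Slc38a1*, so that their direction turned. *Slc38a2* (0.17 to 0.63) and *Slc38a9* (-0.21 to -0.11) kept theirs, as genes whose groups do not overlap must. Direction also turned for *Atf4* (-0.13 to 0.20), *Bcat2* (-0.26 to 0.27, and -0.02 with upper-quartile scaling), *Sec13* (0.00 to 0.13), *Sfxn3* (-0.17 to 0.46), *Slc38a10* (-0.02 to 0.15) and *Slc43a2* (-0.07 to 0.31). The cause was not tested. Of 188 recomputed differences that kept all samples, 187 kept their direction and their side of the threshold.

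Control and Foxa1/2cKO samples share replicate numbers, but nothing in the labels pairs them, and the correlation of same-numbered deviations was -0.059 over 10776 genes. With the replicate number as a block, 1 gene passed the adjusted and 378 the unadjusted threshold, with 0 of the 8 transporters among either. Counting error of the 8 transporters was 1.17% to 4.33% of a value, below the spread between the Foxa1/2cKO samples for *Slc7a1* and *Slc7a5*.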

Other observations

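Some enzymes of the amino acid lists shared the order of samples seen for *Slc7a1* and *Slc7a5*, with Foxa1/2cKO 1 near the controls and Foxa1/2cKO 2 lower. They were chosen for this order after their values were seen and were not tested as a group. Foxa1/2cKO 2 was below the other 3 samples for 33.3% and above them for 40.5% of all genes tested. In the amino acid response list it was below them for 4 and above them for 5 of 13 genes. The order is thus not shared by that list. Among the tRNA synthetases it was below them for 12 and above them for 1 of 20 genes. For glutamine, arginine and branched-chain amino acid metabolism it was below them for 7 and above them for 6 of 16. *Psat1*, of serine synthesis, was at 35.9 and 36.7 FPKM for the controls, 35.2 for Foxa1/2cKO 1 and 21.2 for Foxa1/2cKO 2. *Mthfd2*, of mitochondrial folate metabolism, was at 16.4 and 14.4 in control against 15.3 and 8.75 in Foxa1/2cKO. *Odc1*, the first enzyme of polyamine synthesis from ornithine, was at 24.8 and 27.4 in control against 24.8 and 15.7 in Foxa1/2cKO. *Vars*, the valine tRNA synthetase, was at 49.2 and 50.2 in control against 52.7 and 30.3 in Foxa1/2cKO. None of these 4 had an unadjusted p under 0.05 in limma, where values ran from 0.153 to 0.304.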
